A study of Mus musculus with 12 samples.

Results

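The NRF2 antioxidant genes and metallothioneins are a small set of stress-responsive genes, described here in the liver of young mice with and without Cdk1. The set was chosen by gene symbol and holds Nfe2l2, Nqo1, Gclc, Gclm, Hmox1, Txnrd1, Srxn1, Gpx2, Mt1 and Mt2, which are 10 of the 47069 genes in the deposited table. Messenger RNA was sequenced from isolated hepatocytes and from whole liver of mice at P14 (postnatal day 14), with 3 libraries for each of 4 groups. Cdk1 Liv-/- mice came from a cross of Cdk1 flox/flox mice with Albumin-Cre mice, so that the deletion is driven in cells that express albumin, which are mainly hepatocytes, and the controls are labelled wild type (WT) without further alleles. All mice received a standard diet, and no treatment other than the deletion separates the groups. The study states in general that its experiments had biological replicates. The labels do not say from which animal each library came, or whether hepatocytes and whole liver with the same replicate number share one, so p-values measure only the spread between these libraries.

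NRF2, the transcription factor encoded by Nfe2l2, is held at a low level by KEAP1, which marks it for degradation, and is released when oxidants or electrophiles modify KEAP1. It then pairs with small MAF proteins on antioxidant response elements of genes for detoxification, glutathione synthesis and thioredoxin recycling, while BACH1 represses part of the same genes, Hmox1 among them. Metallothioneins are small cysteine-rich proteins that bind zinc and copper, and in liver their genes respond to metals through the factor MTF1 and also to glucocorticoids and interleukin-6.

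Expression is given in FPKM, fragments per kb of transcript, scaled to the mapped fragments of the library, which allows levels to be compared between genes. The number of reads behind an FPKM of 1 on 1 kb of transcript was estimated from the steps between low values in the table. It was 49.9, 38.6 and 47.4 in replicates 1, 2 and 3 of WT hepatocytes and 40.5, 39.6 and 34.9 in Cdk1 Liv-/- hepatocytes. For whole liver it was 41.7, 41.8 and 43.4 in WT and 47.7, 47.5 and 48.3 in Cdk1 Liv-/-. Groups were compared with limma on log2(FPKM + 0.5), which understates changes of weakly expressed genes, and a gene was taken to have risen or fallen at an adjusted p of at most 0.1 over the 17386 genes tested.

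Cdk1 itself was at 27.9, 20.4 and 28.2 FPKM in WT hepatocytes and at 9.68, 11.8 and 6.87 FPKM in Cdk1 Liv-/- hepatocytes. Whole liver held 25.3, 22.7 and 21.5 FPKM in WT and 11.7, 12.1 and 14.2 FPKM in Cdk1 Liv-/-. The genotypes did not overlap in either compartment, and Cdk1 fell by 1.40 on the log2 scale in hepatocytes (adjusted p 0.0148) and by 0.85 in whole liver (adjusted p 0.00353). The ratio of the means was 0.371 in hepatocytes. The study found Cdk1 mRNA near the limit of detection by quantitative PCR in hepatocytes of this age. The floxed region is exon 3, FPKM here cover the whole gene, and the source of the remaining reads was not tested.

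Some libraries stood apart from their group. The study states that males were used, but whole liver Cdk1 Liv-/- replicate 3 had 158 FPKM of Xist, a transcript of the inactive X chromosome, and a sum of 0 FPKM over 4 genes of the Y chromosome (Kdm5d, Uty, Eif2s3y and Ddx3y). The remaining 11 libraries had Xist levels of 0.14 FPKM or less and sums of 48.4 to 62.1 FPKM over those 4 genes. Cdk1 Liv-/- whole liver replicate 2 combined low Nqo1 and Gclm with high Hmox1, Mt1, Mt2 and myeloid markers, as detailed with those genes. Calls of the members and most list counts are also given without these libraries. Albumin (Alb), the most abundant of the 13 hepatocyte markers, was between 39898 and 64298 FPKM in all 12 libraries, and no hepatocyte marker was at 0. Not all of these markers were as even. In Cdk1 Liv-/- whole liver Cyp2e1 was at 2068, 363 and 1617.5 FPKM in replicates 1, 2 and 3, while Tat and Fgb were highest in replicate 2. Cyp2e1, Tat and Fgb were singled out after their values were seen. Alb was lower in Cdk1 Liv-/- hepatocytes, at 39898 to 44890 FPKM, than in WT hepatocytes, at 60008 to 64298 FPKM. In whole liver it was at 43328 to 47348 FPKM in Cdk1 Liv-/- and at 56843 to 61172 FPKM in WT. WT hepatocyte replicate 3 carried more RNA of other liver cells, except cholangiocytes, than the other hepatocyte libraries. It had 692 FPKM summed over 12 Kupffer cell and macrophage markers and 584 FPKM over 10 erythroid markers. Its cholangiocyte markers summed to 50.9 FPKM, against 102.67, 165.45 and 120.02 FPKM in replicates 1, 2 and 3 of Cdk1 Liv-/- hepatocytes. Without it, the log2 fold changes of the genes that rose in hepatocytes were 1.16 for Nfe2l2 (adjusted p 0.00890), 1.14 for Srxn1 (0.00791), 0.90 for Nqo1 (0.0203) and 0.74 for Txnrd1 (0.0279). In bulk samples, fewer cells of a type and less RNA per cell cannot be told apart.

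Of the 10 genes, 9 were expressed strongly enough to be tested, and Gpx2 was not. In isolated hepatocytes 4 of the 9 rose in Cdk1 Liv-/-, Srxn1, Nfe2l2, Nqo1 and Txnrd1, where 12.1% of all genes tested rose. None of the 9 fell by limma, where 6.61% of all genes fell, and the count of members lower at an unadjusted p under 0.05 was also 0. In whole liver 5 of the 9 rose, the same 4 genes and Hmox1, where 38.0% of all genes tested rose. None fell in whole liver, where 7.53% of all genes fell, and 0 were lower at an unadjusted p under 0.05. A two-sample test with q-values also counted 4 higher and 0 lower members in hepatocytes and 5 higher and 0 lower in whole liver. The 2 genotype comparisons share no library. Across all genes, 64.7% of the calls in hepatocytes and 83.5% of those in whole liver were higher in Cdk1 Liv-/-. After division by median-ratio size factors these shares were 54.7% and 52.2%. With size factors 9.83% of all genes rose and 8.13% fell in hepatocytes, and 17.9% and 16.4% did in whole liver. Without WT hepatocyte replicate 3, 8.61% rose and 4.39% fell in hepatocytes. In whole liver 33.0% and 6.87% did without Cdk1 Liv-/- replicate 2, and 31.5% and 5.71% without replicate 3. List counts in these settings are to be read beside these shares.

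The median log2 fold change of all genes tested was 0.049 in hepatocytes and 0.18 in whole liver, and size factors moved it by -0.17 in whole liver, to 0.013. Relative to the median of all genes, the whole liver differences were 1.13 for Srxn1, 1.10 for Nfe2l2, 0.80 for Hmox1, 0.65 for Nqo1 and 0.41 for Txnrd1. They were 0.56 for Mt2, 0.23 for Mt1, 0.042 for Gclm and -0.10 for Gclc. With size factors the order of the 5 genes that rose was the same, and 4 of the 5 stayed past the threshold. The exception was Nqo1, at 0.62 with an adjusted p of 0.161, and Gclc was at -0.14 (adjusted p 0.484) in place of 0.077.

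**Figure D1:**
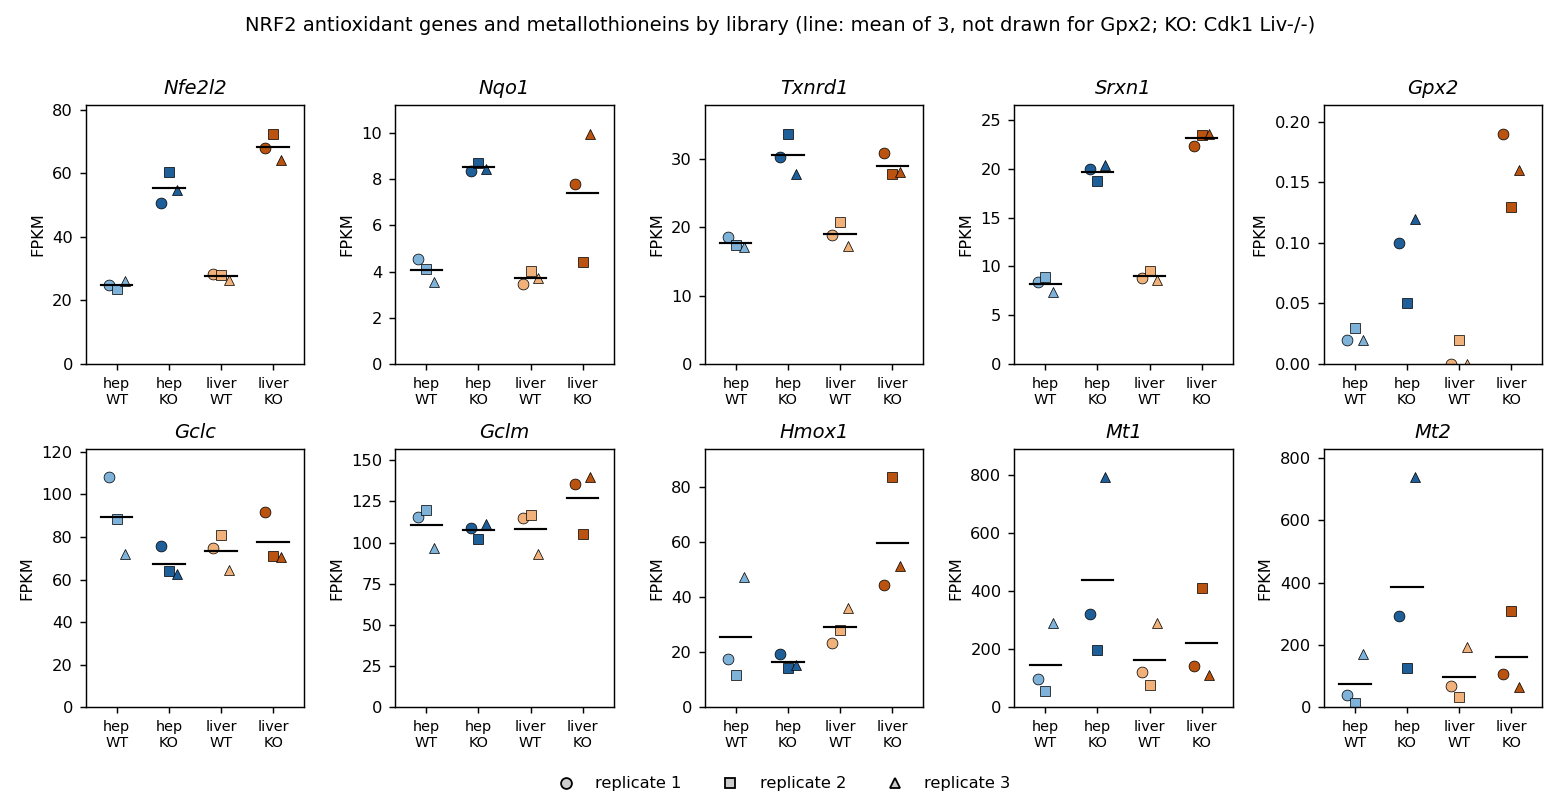
FPKM (linear axis from 0) of the 10 genes in each of the 12 libraries, by compartment and genotype, with a symbol for each replicate number and a line at the mean of 3, which is not drawn for Gpx2. Nfe2l2, Txnrd1 and Srxn1 form separate levels by genotype with little spread, while Mt1 and Mt2 range over 3.65-fold to 11.1-fold within a group.

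Nfe2l2 (ENSMUSG00000015839, minus strand of chr2:75675513-75704641, mm10) encodes NRF2. Its mRNA was at 24.95, 23.8 and 26.2 FPKM in replicates 1, 2 and 3 of WT hepatocytes and at 50.7, 60.4 and 54.8 FPKM in Cdk1 Liv-/- hepatocytes. The whole liver libraries had 28.3, 28.2 and 26.5 FPKM in WT and 67.9, 72.4 and 64.2 FPKM in Cdk1 Liv-/-. Every Cdk1 Liv-/- library was above every WT library of its compartment, with coefficients of variation of 3.57% to 8.79% within the groups. The mean rose from 24.98 ± 1.24 to 55.3 ± 4.86 FPKM (SD, n = 3) in hepatocytes, a log2 fold change of 1.13 (SE 0.089, 95% interval 0.91 to 1.34, adjusted p 0.00196 by limma). In whole liver it rose from 27.6 ± 0.986 to 68.2 ± 4.11 FPKM, a log2 fold change of 1.29 (SE 0.061, 95% interval 1.13 to 1.44, adjusted p 0.000259). Without whole liver Cdk1 Liv-/- replicate 3 the value was 1.33 (adjusted p 0.00225). The ratios of the means were 2.21 and 2.47.

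The other regulators of the pathway were taken as a list of 11 genes, KEAP1 and its CUL3 ligase partners, the small MAFs, BACH1, BACH2, the related factors NRF1 and NRF3, and SQSTM1. In hepatocytes 1 of the 11 rose, Mafk (log2 fold change 0.91), where 12.1% of all genes rose, and 0 fell by limma, with 0 lower at an unadjusted p under 0.05. The median of the list was 0.35 beside 0.049 for all genes. In whole liver 4 of the 11 rose, where 38.0% of all genes rose, and 0 fell, again with 0 lower at an unadjusted p under 0.05. These were Maff (1.76), Mafk (0.97), Bach1 (0.62) and Sqstm1 (0.51), a cargo receptor of autophagy that binds KEAP1. The median in whole liver was 0.15, below that of all genes, and it was -0.067 with size factors, when 3 rose beside 17.9% of all genes. Without whole liver Cdk1 Liv-/- replicate 3, 5 rose, where 31.5% of all genes did. Keap1 mRNA lay between 13.1 and 21.2 FPKM in all 12 libraries, and its log2 fold changes of 0.20 in hepatocytes and 0.22 in whole liver did not pass the test. The whole liver value was close to the median of all genes, 0.18. In the FPKM as deposited its Cdk1 Liv-/- libraries were narrowly above the WT libraries of their compartment. The share of all genes that separate in this way was not counted. The lowest Cdk1 Liv-/- and highest WT values were 16.2 and 15.98 FPKM in hepatocytes and 16.81 and 16.64 FPKM in whole liver. Keap1 was singled out after its values were seen.

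Srxn1 (ENSMUSG00000032802, plus strand of chr2:152105516-152111376) encodes sulfiredoxin, which restores overoxidized peroxiredoxins. Among the 8 members for which RefSeq lists a promoter window (GRCm38.p6, 250 bases before to 50 after a start site), that of Srxn1 held the most cores of the antioxidant response element. The core was searched as TGACNNNGC or TGAGNNNGC on both strands, and 27.9% of the 32544 distinct promoter windows of the table held at least 1 and 0.64% held 3 or more. The window is shown because Srxn1 had the largest log2 fold change in whole liver of the 9 genes tested and the largest of the 4 that rose in hepatocytes. It lies on the plus strand at chr2:152105274-152105573, and its 3 cores are in capitals, starting 158 and 45 bases before and 28 bases after the start site. A match describes the letters only and is not a binding site.
Srxn1: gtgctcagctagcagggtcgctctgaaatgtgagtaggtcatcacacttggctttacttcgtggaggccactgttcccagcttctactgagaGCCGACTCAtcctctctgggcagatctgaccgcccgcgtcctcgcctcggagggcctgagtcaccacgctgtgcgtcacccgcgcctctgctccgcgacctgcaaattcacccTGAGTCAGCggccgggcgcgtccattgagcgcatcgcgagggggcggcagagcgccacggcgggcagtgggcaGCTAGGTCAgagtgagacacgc

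Single cores of the same kind were found in the windows of Nfe2l2 (240 bases before the start site), Gclm (134 bases before), Mt2 (79 bases before) and in 1 of the 3 windows of Txnrd1 (92 bases before). The windows of Nqo1, Gpx2 and Mt1 did not hold these letters. Gclc and Hmox1 have no entry.

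Srxn1 was at 8.42, 8.94 and 7.37 FPKM in WT hepatocytes and at 19.95, 18.8 and 20.4 FPKM in Cdk1 Liv-/- hepatocytes. In whole liver it was at 8.86, 9.57 and 8.57 FPKM in WT and at 22.4, 23.4 and 23.6 FPKM in Cdk1 Liv-/-. The genotypes were far apart in both compartments, and the lowest Cdk1 Liv-/- value, 18.8 FPKM, was well above the highest WT value, 9.57 FPKM. The means of 8.24 ± 0.7998 and 19.7 ± 0.828 FPKM in hepatocytes gave a log2 fold change of 1.21 (SE 0.099, 95% interval 0.97 to 1.45, adjusted p 0.00216). In whole liver the means were 9.0 ± 0.514 and 23.1 ± 0.656 FPKM, and the log2 fold change was 1.32 (SE 0.060, 95% interval 1.17 to 1.46, adjusted p 0.000234), or 1.30 without Cdk1 Liv-/- replicate 3 (adjusted p 0.00293). With 2.57 as the ratio of its means, Srxn1 had the largest relative rise in whole liver among the 9 genes.

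Txnrd1 (ENSMUSG00000020250, plus strand of chr10:82833951-82897712) encodes the cytosolic thioredoxin reductase, which passes electrons from NADPH to thioredoxin. Its values were 18.6, 17.4 and 17.1 FPKM in WT hepatocytes against 30.3, 33.6 and 27.75 FPKM in Cdk1 Liv-/- hepatocytes. In whole liver they were 18.8, 20.8 and 17.3 FPKM in WT against 30.8, 27.8 and 28.0 FPKM in Cdk1 Liv-/-. The genotypes were again separate in both compartments, at levels that were close between hepatocytes and whole liver. Txnrd1 rose by 0.77 on the log2 scale in hepatocytes (SE 0.094, 95% interval 0.54 to 0.99, adjusted p 0.00676). In whole liver it rose by 0.60 (SE 0.083, 95% interval 0.39 to 0.80, adjusted p 0.00588), and by 0.62 without Cdk1 Liv-/- replicate 3 (adjusted p 0.0226).

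Nqo1 (ENSMUSG00000003849, minus strand of chr8:107388225-107403206) encodes a quinone reductase that is widely used as a readout of NRF2. It was the least abundant of the 9 genes tested, at 4.56, 4.13 and 3.54 FPKM in WT hepatocytes and 8.36, 8.71 and 8.44 FPKM in Cdk1 Liv-/- hepatocytes. Whole liver held 3.48, 4.02 and 3.71 FPKM in WT and 7.78, 4.41 and 9.95 FPKM in Cdk1 Liv-/-. In hepatocytes the Cdk1 Liv-/- libraries were close together and well above WT, while in whole liver Cdk1 Liv-/- replicate 2 was just above the highest WT library. Nqo1 rose by 0.98 on the log2 scale in hepatocytes (SE 0.12, 95% interval 0.69 to 1.27, adjusted p 0.00678).

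The rise of Nqo1 in whole liver was 0.83 on the log2 scale (SE 0.27, 95% interval 0.15 to 1.504, adjusted p 0.0636), and its call was lost in most fits with 1 library left out. It was past the threshold without Cdk1 Liv-/- replicate 2, at 1.14 (adjusted p 0.00725). It was no longer past it without any of the other 5 libraries in turn, at 0.79, 0.88 and 0.83 when WT replicate 1, 2 or 3 was left out (adjusted p 0.166, 0.125 and 0.141). The values were 0.76 (adjusted p 0.144) when Cdk1 Liv-/- replicate 1 was left out and 0.59 (adjusted p 0.134) for replicate 3. It also missed the threshold with no filter on low values (adjusted p 0.135). Its adjusted p lay between 0.00725 and 0.166 over the alternatives.

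Over the 12 libraries, the genes with a profile most like that of Nqo1 by Pearson correlation of log2(FPKM + 0.5), among 12281 genes that averaged 1 FPKM or more, were Cyp3a41a (0.955), Gm6135 (0.953), Gstm3 (0.953), A230050P20Rik (0.951) and Mgst1 (0.951). The points are the same libraries and share the same groups, so these values are a description.

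**Figure D2:**
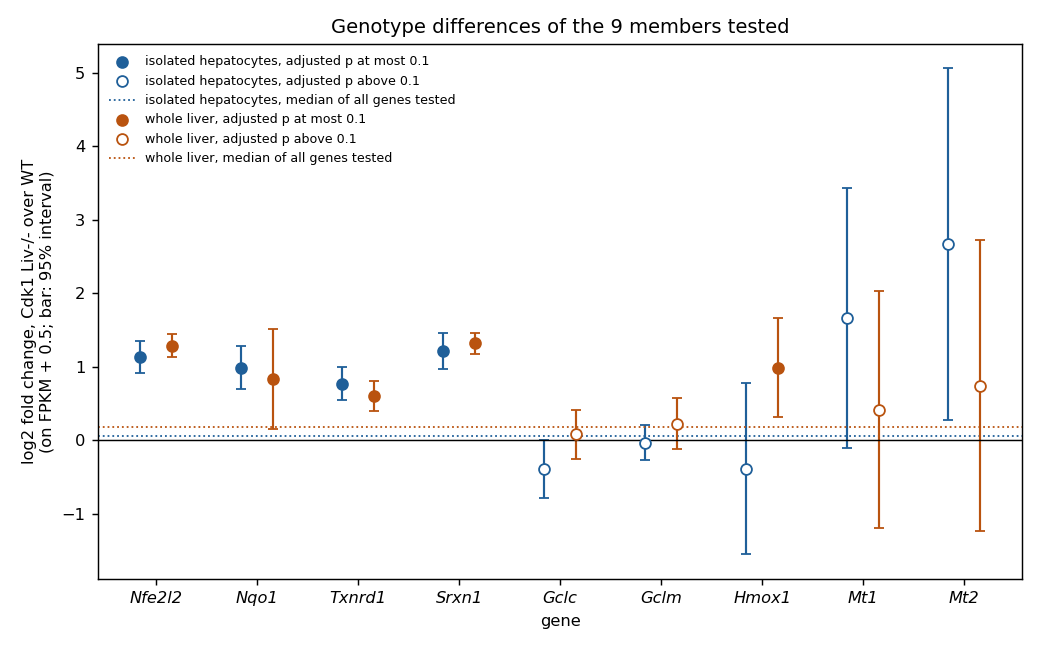
Log2 fold change of Cdk1 Liv-/- over WT on FPKM + 0.5 for the 9 genes tested, in isolated hepatocytes (blue) and whole liver (orange), with bars for the 95% interval, filled points for an adjusted p of at most 0.1 and dotted lines at the median of all genes tested (0.049 and 0.18). Nfe2l2 and Srxn1 lie above 1 in both compartments with narrow intervals, and the intervals of Mt1 and Mt2 are the widest.

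Gpx2 (ENSMUSG00000042808, minus strand of chr12:76792333-76795554) encodes a glutathione peroxidase known mainly from the gut epithelium. It was listed at 0.02, 0.03 and 0.02 FPKM in WT hepatocytes and at 0.10, 0.05 and 0.12 FPKM in Cdk1 Liv-/- hepatocytes. For whole liver it was listed at 0, 0.02 and 0 FPKM in WT and at 0.19, 0.13 and 0.16 FPKM in Cdk1 Liv-/-. The Cdk1 Liv-/- libraries were the higher ones in both compartments, but on 1 kb of transcript 0.19 FPKM stands for 9.06 reads and 0.02 FPKM in whole liver for 0.836 reads. A floor of 3 reads on 1 kb corresponds to 0.0601 to 0.0860 FPKM in these libraries. All WT libraries and Cdk1 Liv-/- hepatocyte replicate 2 were under it, and no fold change is given. The longest annotated transcript of Gpx2 has 3165 bases. On a transcript longer than 1 kb the floor in FPKM is lower, so which libraries are under it depends on the length taken. Gpx2 also lies within Fntb on the opposite strand, which had a mean of 2.54 FPKM, and shares 3.17% of its 75-base stretches with Gpx2-ps1. Whether reads were assigned by strand is not given in the sources used here.

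Gclc (ENSMUSG00000032350, plus strand of chr9:77754535-77794485) and Gclm (ENSMUSG00000028124, plus strand of chr3:122245557-122270732) encode the catalytic and the modifier subunit of glutamate-cysteine ligase, the first step of glutathione synthesis. Gclc was at 107.9, 88.3 and 71.8 FPKM in WT hepatocytes and at 75.65, 64.0 and 62.4 FPKM in Cdk1 Liv-/- hepatocytes. The whole liver libraries had 74.7, 80.9 and 64.6 FPKM in WT and 91.8, 71.1 and 70.4 FPKM in Cdk1 Liv-/-. The genotypes overlapped in both compartments, and WT hepatocyte replicate 1 held the highest value of the 12 libraries. The log2 difference in hepatocytes was -0.39 (95% interval -0.78 to 0.0022, adjusted p 0.178). Without WT hepatocyte replicate 3 it was -0.54 and passed the threshold (adjusted p 0.0876, over all alternatives 0.0876 to 0.357), and without WT hepatocyte replicate 1 it was -0.24 (adjusted p 0.341). In whole liver the log2 difference of Gclc was 0.077 (95% interval -0.25 to 0.41, adjusted p 0.682), and it was 0.14 without Cdk1 Liv-/- replicate 2 (adjusted p 0.534) and 0.14 without replicate 3 (adjusted p 0.513). Its sign was negative without Cdk1 Liv-/- replicate 1, at -0.047 (adjusted p 0.758), and without WT replicate 3, at -0.011 (adjusted p 0.964).

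Gclm was at 115.8, 119.55 and 96.6 FPKM in WT hepatocytes and at 109, 102 and 111 FPKM in Cdk1 Liv-/- hepatocytes. For whole liver it was at 115, 117 and 93.3 FPKM in WT and at 135, 105 and 139.6 FPKM in Cdk1 Liv-/-. The values overlapped in both compartments, and replicate 3 was the lowest of the WT libraries in each of them. The log2 differences were -0.035 in hepatocytes (95% interval -0.28 to 0.21, adjusted p 0.849) and 0.22 in whole liver (95% interval -0.12 to 0.57, adjusted p 0.261). Without whole liver Cdk1 Liv-/- replicate 2 the latter was 0.35 and passed the threshold (adjusted p 0.0775, over all alternatives 0.0775 to 0.996). It was 0.15 without Cdk1 Liv-/- replicate 3 (adjusted p 0.510) and 0.12 without WT replicate 3 (adjusted p 0.549). In hepatocytes the interval for Gclm excludes a log2 change as large as those of Nfe2l2, Nqo1, Txnrd1 and Srxn1. Of the 75-base stretches of Gclm, 2.84% are shared with other genes, Ppia and its pseudogenes among them.

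Other genes of glutathione synthesis and use formed a list of 24, of which 23 were tested. In hepatocytes 9 of the 23 rose and 1 fell, where 12.1% and 6.61% of all genes did, with a median of 0.47. Gpx3, a secreted glutathione peroxidase, rose by 3.64 and Ggt6 by 1.63, while Lap3 rose by 0.39 and Cth, the last enzyme of cysteine synthesis from methionine, fell by 1.37. In whole liver 11 of the 23 rose and 5 fell, where 38.0% and 7.53% of all genes did, with a median of 0.31 beside 0.18 for all genes. There Gpx3 rose by 2.13 and Gpx7 by 1.03, and Cth fell by 1.71 and Chac1, which degrades glutathione, by 0.84. With size factors 9 rose and 6 fell in whole liver (median 0.085), where 17.9% and 16.4% of all genes did. Without Cdk1 Liv-/- replicate 3 the counts were 11 and 3, where 31.5% and 5.71% of all genes were called. In hepatocytes size factors gave 7 higher and 2 lower, where 9.83% and 8.13% of all genes were.

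A list of 20 thioredoxins, peroxiredoxins, superoxide dismutases, catalase and related genes was counted in the same way. In hepatocytes 1 rose, Msra (0.31), where 12.1% of all genes rose, and 2 fell, Txnrd2 (-0.76) and Prdx4 (-0.66), where 6.61% did, with a median of -0.041. With size factors 0 rose by limma (1 higher at an unadjusted p under 0.05) and 3 fell, where 9.83% and 8.13% of all genes did. Without WT hepatocyte replicate 3 the counts were 2 and 2, at a median of 0.028, where 8.61% and 4.39% of all genes were called. In whole liver 4 rose, where 38.0% of all genes rose, and 5 fell, where 7.53% did, with a median of 0.093. The difference from all genes was not tested. Sesn2 (0.61) and Prdx2 (0.56), a substrate of the sulfiredoxin cycle, rose most, and Txnrd2 (-0.44) and Prdx4 (-0.43) fell most. With size factors 2 rose and 9 fell (median -0.10), where 17.9% and 16.4% of all genes did. Without Cdk1 Liv-/- replicate 3 the counts were 3 and 4, where 31.5% and 5.71% of all genes were called. Txnrd2, the mitochondrial reductase, thus fell in the compartments in which the cytosolic Txnrd1 rose.

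Hmox1 (ENSMUSG00000005413, plus strand of chr8:75093621-75100589) encodes haem oxygenase 1, which opens the haem ring and is abundant in macrophages that take up red cells. It was at 17.4, 11.9 and 47.2 FPKM in WT hepatocytes and at 19.45, 14.3 and 15.2 FPKM in Cdk1 Liv-/- hepatocytes. Whole liver held 23.3, 28.2 and 36.15 FPKM in WT and 44.4, 83.35 and 51.2 FPKM in Cdk1 Liv-/-. In hepatocytes the genotypes overlapped and WT replicate 3 stood above the other 5 libraries, while in whole liver every Cdk1 Liv-/- library was above every WT library. The log2 difference in hepatocytes was -0.39 (95% interval -1.56 to 0.77, adjusted p 0.630), and without WT replicate 3 it was 0.17 (adjusted p 0.682).

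In whole liver Hmox1 rose from 29.2 ± 6.48 to 59.6 ± 20.8 FPKM (SD, n = 3), a log2 fold change of 0.98 (SE 0.27, 95% interval 0.31 to 1.65, adjusted p 0.0386). Without Cdk1 Liv-/- replicate 2 it was 0.72 (adjusted p 0.0540), and without replicate 3 it was 1.07 (adjusted p 0.0766). The call was lost without WT replicate 1, at 0.84 (adjusted p 0.119), and without WT replicate 2, at 0.97 (adjusted p 0.103). It was also lost in 1 fit of all 12 libraries (adjusted p 0.109), and its adjusted p lay between 0.0264 and 0.119 over the alternatives. The difference between the compartments in the effect of genotype was -1.38 for Hmox1 (95% interval -2.68 to -0.077), with an unadjusted p of 0.0398 and an adjusted p of 0.187. It was -1.79 and past the threshold without WT hepatocyte replicate 2 (adjusted p 0.0629, over all alternatives 0.0629 to 0.351), and -0.82 without WT hepatocyte replicate 3 (adjusted p 0.266).

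Kupffer cell and macrophage markers are given beside Hmox1. Summed over the 12 markers they were at 376, 205 and 692 FPKM in WT hepatocytes and at 229, 171 and 150.1 FPKM in Cdk1 Liv-/- hepatocytes. In whole liver the sums were 542, 597 and 603 FPKM in WT and 689, 946.5 and 719 FPKM in Cdk1 Liv-/-. Both the marker sum and Hmox1 were highest in replicate 3 of WT hepatocytes, replicate 3 of WT whole liver and replicate 2 of Cdk1 Liv-/- whole liver within their groups. This was not particular to Kupffer cells. The summed markers of endothelial cells, of stellate cells, of monocytes and neutrophils and of erythroid cells were highest in the same libraries. Those of hepatocytes, of cholangiocytes and of B, T and NK cells were not. Cd5l, a macrophage protein and the most abundant of the markers, was at 55.4, 24.8 and 98.3 FPKM in WT hepatocytes and at 43.15, 35.1 and 31.4 FPKM in Cdk1 Liv-/- hepatocytes. In whole liver Cd5l was at 78.9, 97.5 and 90.3 FPKM in WT and at 139.8, 222 and 152 FPKM in Cdk1 Liv-/-, and none of the 12 markers was at 0 in a library. In hepatocytes 0 of the 12 rose by limma, with 0 higher at an unadjusted p under 0.05, and 2 fell, where 12.1% and 6.61% of all genes did. The median was -1.09, and 8 were lower at an unadjusted p under 0.05. With size factors 6 fell, where 8.13% of all genes did. Without WT hepatocyte replicate 3, 0 of the 12 fell by limma, where 4.39% of all genes did, with 6 lower at an unadjusted p under 0.05, at a median of -0.70. In whole liver 4 of the 12 rose and 1 fell, where 38.0% and 7.53% of all genes did, at a median of 0.23. With size factors 2 rose and 1 fell, where 17.9% and 16.4% of all genes did, at a median of 0.015. The counts without Cdk1 Liv-/- replicate 2 were 4 and 0 (0 lower at an unadjusted p under 0.05), at a median of 0.13, and without replicate 3 they were 4 and 1. The part of these cells in the level of Hmox1 was not tested.

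**Figure D3:**
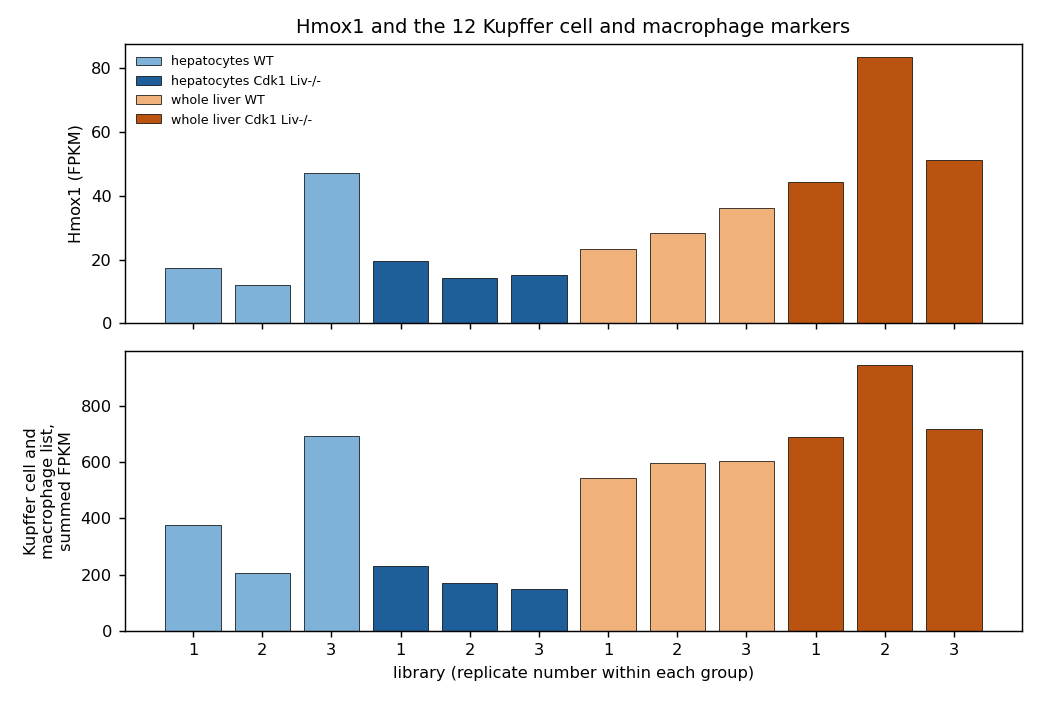
Hmox1 (upper bars, FPKM) and the summed FPKM of 12 Kupffer cell and macrophage markers (lower bars) in the 12 libraries, by group and replicate number, on linear axes from 0. Hmox1 was highest in Cdk1 Liv-/- whole liver replicate 2 (83.35 FPKM), where the marker sum was 946.5 FPKM, and WT hepatocyte replicate 3 had 47.2 FPKM of Hmox1 and a marker sum of 692 FPKM.

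The 5 genes with a profile most like that of Hmox1 over the 12 libraries were Nxn (0.989), Loxl2 (0.981), Sh3kbp1 (0.981), Tbc1d22a (0.980) and Mapk7 (0.979), by the same measure as for Nqo1. Haem breakdown and iron storage were covered by a list of 12 genes, of which 11 were tested. In hepatocytes 3 of the 11 rose and 3 fell, where 12.1% and 6.61% of all genes did, with a median of 0.15. The haptoglobin gene Hp (1.14) and the hemopexin gene Hpx (1.09), whose products clear haemoglobin and haem from plasma, rose, and the iron exporter Slc40a1 (-1.29) and the haemoglobin scavenger receptor Cd163 (-0.93), also a Kupffer cell marker, fell. In whole liver 6 of the 11 rose and 1 fell, where 38.0% and 7.53% of all genes did, with a median of 0.30. Hpx (1.05) and Hp (1.04) rose most, Cd163 fell by 0.78, and the ferritin gene Fth1 rose by 0.30. With size factors 5 rose and 3 fell in whole liver (median 0.082), where 17.9% and 16.4% of all genes did. Without Cdk1 Liv-/- replicate 3 the counts were 5 and 1, where 31.5% and 5.71% of all genes were called.

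Mt1 (ENSMUSG00000031765, plus strand of chr8:94179082-94180327) and Mt2 (ENSMUSG00000031762, plus strand of chr8:94172664-94173568) lie next to each other on chromosome 8. Their promoter windows (RefSeq, GRCm38.p6, plus strand, chr8:94178839-94179138 for Mt1 and chr8:94172368-94172667 for Mt2) are shown because both genes moved together over the libraries. The core of the metal response element was searched as TGCACNC or TGCGCNC on both strands, and the matches are in capitals. The window of Mt1 held 3, starting 23 bases before and 2 and 20 bases after the start site, and that of Mt2 held 4, starting 223, 128 and 50 bases before and 4 bases after it. These start sites are those of RefSeq. The gene position of Mt2 given above is from GENCODE and begins further downstream, near the end of the window, so that all 4 cores of Mt2 lie before it. Of all promoter windows 25.9% held at least 1 such core and 1.99% held 3 or more. Among the other members, Gclm had 3 cores and Srxn1 had 1, starting 19 bases before its start site.
Mt1: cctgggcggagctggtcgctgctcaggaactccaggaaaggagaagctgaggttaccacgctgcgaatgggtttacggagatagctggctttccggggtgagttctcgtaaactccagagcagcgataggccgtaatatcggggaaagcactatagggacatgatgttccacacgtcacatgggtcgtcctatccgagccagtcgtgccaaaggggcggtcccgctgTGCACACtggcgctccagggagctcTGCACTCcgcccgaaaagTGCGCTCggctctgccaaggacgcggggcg
Mt2: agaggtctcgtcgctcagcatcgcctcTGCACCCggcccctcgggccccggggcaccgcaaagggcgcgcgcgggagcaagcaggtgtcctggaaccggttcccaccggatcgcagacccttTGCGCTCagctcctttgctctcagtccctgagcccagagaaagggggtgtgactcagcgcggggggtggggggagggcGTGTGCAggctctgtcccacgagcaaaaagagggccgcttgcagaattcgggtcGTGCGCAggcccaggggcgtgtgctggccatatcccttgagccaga

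Mt1 was at 98.55, 55.1 and 289.9 FPKM in WT hepatocytes and at 323, 197 and 793 FPKM in Cdk1 Liv-/- hepatocytes. The whole liver libraries had 123, 78.8 and 291 FPKM in WT and 144, 410.3 and 112 FPKM in Cdk1 Liv-/-. Replicate 3 was the highest and replicate 2 the lowest of the WT libraries and of the Cdk1 Liv-/- hepatocyte libraries, whereas in Cdk1 Liv-/- whole liver replicate 2 was the highest. The genotypes overlapped in both compartments, since WT hepatocyte replicate 3 was above Cdk1 Liv-/- hepatocyte replicate 2.

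Mt2 followed the same order of libraries, at 39.98, 15.4 and 170.2 FPKM in WT hepatocytes and at 294, 128 and 737 FPKM in Cdk1 Liv-/- hepatocytes. In whole liver it was at 68.5, 34.4 and 192 FPKM in WT and at 106, 309.7 and 65.3 FPKM in Cdk1 Liv-/-. Its highest library was 11.1 times its lowest within WT hepatocytes alone, the widest spread within a group among the 9 genes tested.

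Neither gene passed the test in either compartment with the libraries taken as independent. With the replicate number as a block both passed in hepatocytes, Mt1 at 1.66 (adjusted p 0.0205, over all alternatives 0.0205 to 0.414) and Mt2 at 2.66 (adjusted p 0.0251), and in each replicate number the Cdk1 Liv-/- hepatocyte library was above the WT one for both genes. A WT and a Cdk1 Liv-/- library cannot come from the same animal, and the labels do not state that equal replicate numbers share anything else. Over all genes tested, deviations of same-numbered WT and Cdk1 Liv-/- hepatocyte libraries from their group means correlated at -0.317, 0.0179 and -0.0917. In hepatocytes the log2 difference was 2.66 for Mt2 (SE 0.99, 95% interval 0.27 to 5.06, unadjusted p 0.0344, adjusted p 0.142) and 1.66 for Mt1 (SE 0.73, 95% interval -0.11 to 3.44, adjusted p 0.197). For whole liver it was 0.74 for Mt2 (95% interval -1.24 to 2.72, adjusted p 0.504) and 0.41 for Mt1 (95% interval -1.20 to 2.02, adjusted p 0.653). The interval of Mt2 in hepatocytes lies above 0 and the other 3 include it, and each of the 4 reaches values larger than the rise of any gene of the set that passed.

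Single libraries moved the metallothionein values. Without WT hepatocyte replicate 3, Mt2 was 3.58 higher and passed the threshold (adjusted p 0.0716). It also passed in 1 fit of all 12 libraries (adjusted p 0.0690), with a range of adjusted p from 0.0251 to 0.319 over the alternatives. For Mt1 in hepatocytes the values with 1 library left out ranged from 1.11 to 2.32. In whole liver they ranged from -0.15, without Cdk1 Liv-/- replicate 2, to 0.93, without WT replicate 3, and for Mt2 from 0.11 to 1.40. Without Cdk1 Liv-/- replicate 3 they were 0.78 for Mt1 (adjusted p 0.451) and 1.23 for Mt2 (adjusted p 0.331). The differences between the compartments in the effect of genotype were 1.92 for Mt2 (95% interval -1.07 to 4.92, adjusted p 0.429) and 1.25 for Mt1 (95% interval -1.05 to 3.56, adjusted p 0.512), and neither passed.

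The balance of the 2 metallothioneins differed between libraries. The ratio of Mt1 to Mt2 in FPKM was 2.465, 3.59 and 1.70 in WT hepatocytes and 1.10, 1.54 and 1.075 in Cdk1 Liv-/- hepatocytes. In whole liver it was 1.80, 2.29 and 1.51 in WT and 1.36, 1.325 and 1.72 in Cdk1 Liv-/-. In hepatocytes every WT ratio was above every Cdk1 Liv-/- ratio, and in whole liver the ratios overlapped. In each of the 12 libraries Mt1 was the more abundant per length, and within each group the library with the highest Mt2 had the lowest ratio. Mt2 was also the gene most like Mt1 over the 12 libraries (Pearson correlation 0.987), followed by Ankrd23 (0.894), Bnip3 (0.872), Sun2 (0.869) and Mknk1 (0.837).

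**Figure D4:**
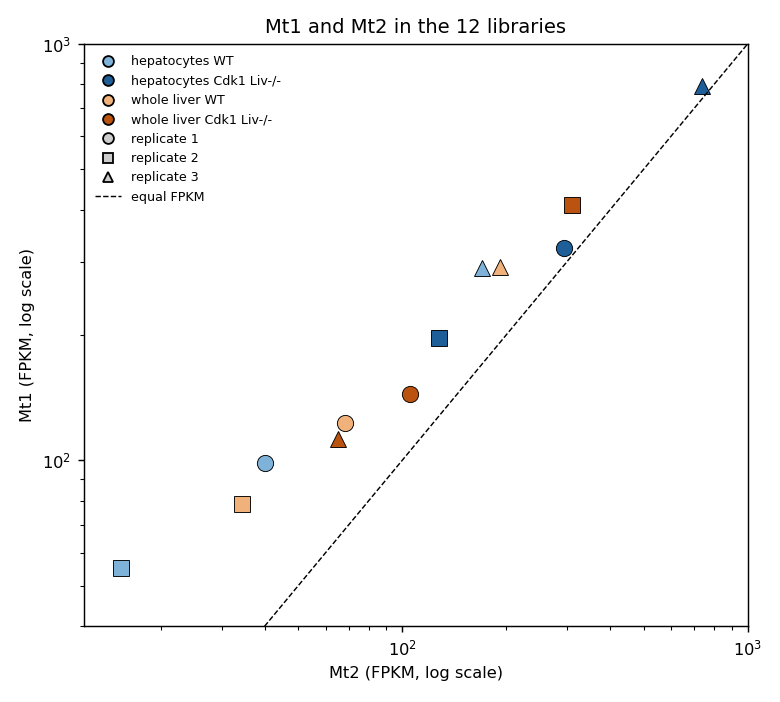
Mt1 against Mt2 in FPKM, both on log axes, with 1 point for each of the 12 libraries, colours for the 4 groups, symbols for the replicate numbers and a dashed line at equal FPKM. All 12 points lie above the line, and the ratio is nearest to 1 in Cdk1 Liv-/- hepatocyte replicate 3 (1.075).

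Genes of zinc and copper handling, MTF1, the zinc transporters and the copper chaperones and pumps, formed a list of 30, of which 27 were tested. In hepatocytes 3 of the 27 rose and 1 fell, where 12.1% and 6.61% of all genes did, with a median of -0.015. Slc39a11 (1.08), Atox1 (0.65), a copper chaperone, and Slc30a9 (0.47) rose, and the zinc importer Slc39a8 (-0.59) fell. In whole liver 14 of the 27 rose, where 38.0% of all genes rose, and 0 fell by limma, with 0 lower at an unadjusted p under 0.05 and a median of 0.22 beside 0.18 for all genes. Slc39a11 (1.05) and Slc39a5 (0.77) rose most, and Slc30a9 (0.17) and Slc39a14 (0.22) were the smallest of the 14. With size factors 6 rose and 4 fell in whole liver, where 17.9% and 16.4% of all genes did, at a median of -0.0040 beside 0.013 for all genes. Without Cdk1 Liv-/- replicate 3 the counts were 10 and 0, where 31.5% and 5.71% of all genes were called. Slc30a1, the zinc exporter that MTF1 also controls, was at 7.81, 5.97 and 5.57 FPKM in WT hepatocytes and 5.78, 9.01 and 12.2 FPKM in Cdk1 Liv-/- hepatocytes, and it did not pass there (0.40). In whole liver Slc30a1 rose by 0.36, and it was singled out after its values were seen.

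Glucocorticoid-responsive genes and acute phase genes of the IL-6 and STAT3 pathway were taken as further lists because metallothionein genes answer both signals. Of 15 glucocorticoid-responsive genes, 2 rose in hepatocytes, Lcn2 (6.003) and Zbtb16 (2.25), where 12.1% of all genes rose, and 0 fell, with 0 lower at an unadjusted p under 0.05 by limma and a median of 0.22. In whole liver 4 of the 15 rose, where 38.0% of all genes rose, and 2 fell, also at a median of 0.22, led by Lcn2 (5.19) and Cebpd (1.14), with Tdo2 (-1.37) and Klf9 (-0.42) lower. With size factors, and also when Cdk1 Liv-/- replicate 3 was left out, the counts in whole liver were 1 and 3. Of all genes 17.9% rose and 16.4% fell with size factors, and 31.5% and 5.71% did without that library. Of 20 acute phase genes, 12 rose in hepatocytes, where 12.1% of all genes rose, and 0 fell, with 0 lower at an unadjusted p under 0.05 and a median of 1.13. The orosomucoid genes Orm1 (8.63) and Orm2 (7.35) rose most, and Serpina3n (0.94) and Socs3 (1.12) were the smallest of those that rose. In whole liver 13 of the 20 rose and 1 fell, where 38.0% and 7.53% of all genes did, at a median of 1.26, with Orm1 (6.98) and Orm2 (6.26) at one end and Lbp (0.17) and Itih4 (-0.25) at the other. With size factors the counts were 12 and 2, and without Cdk1 Liv-/- replicate 3 they were 12 and 0. Some genes are on several lists, as Lcn2 is here.

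Immediate early and heat shock genes, which answer handling of cells and tissue as well as stress, formed a list of 16. In hepatocytes 7 of the 16 rose, where 12.1% of all genes rose, and 0 fell by limma, with 0 lower at an unadjusted p under 0.05 and a median of 1.17. Fos (2.03) and Atf3 (1.98) rose most, and Fosb (1.23) and Btg2 (1.12) least. In whole liver 14 of the 16 rose, where 38.0% of all genes rose, and 0 fell, with 0 lower at an unadjusted p under 0.05 and a median of 1.06, from Ier3 (2.75) and Atf3 (2.58) to Myc (0.63) and Hspa1a (0.41). With size factors 11 rose and 1 fell there, where 17.9% and 16.4% of all genes did. Without Cdk1 Liv-/- replicate 3 the counts were 14 and 0, where 31.5% and 5.71% of all genes were called. The part of these responses in the members' levels was not tested.

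The widest view of the pathway came from 42 other NRF2 target genes, glutathione transferases, aldo-keto reductases, NADPH-producing enzymes, ferritins and transporters, of which 39 were tested. In hepatocytes 17 of the 39 rose, where 12.1% of all genes rose, and 0 fell by limma, with 1 lower at an unadjusted p under 0.05, and the median was 0.48. The glutathione transferase genes Gsta1 (3.19) and Gstm3 (2.83) rose most, and Htatip2 (0.48) and Tkt (0.47), a transketolase of the pentose phosphate pathway, were the smallest of the 17. In whole liver 30 of the 39 rose and 1 fell, where 38.0% and 7.53% of all genes did, and the median was 0.53 beside 0.18 for all genes. Gstm3 (2.41) and Ephx1 (2.38), the microsomal epoxide hydrolase, rose most, the smallest rise was that of Taldo1 (0.26), and the cytochrome Cyp2a5 fell by 1.93. With size factors the counts were 14 and 1 in hepatocytes, where 9.83% and 8.13% of all genes were then called, and 19 and 3 in whole liver, where 17.9% and 16.4% were and the median was 0.32. Without Cdk1 Liv-/- replicate 3, 25 rose and 1 fell in whole liver, where 31.5% and 5.71% of all genes did.

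The values of a few of these genes show the spread behind the counts. Gstm3 was at 6.60, 5.59 and 3.77 FPKM in WT hepatocytes and at 32.9, 51.8 and 37.3 FPKM in Cdk1 Liv-/- hepatocytes. In Cdk1 Liv-/- whole liver Gstm3 was at 37.2, 17.1 and 68.3 FPKM, and its lowest library, replicate 2, was also the lowest of that group for Nqo1 and Gclm. Ephx1 was at 32.9, 45.55 and 44.4 FPKM in WT hepatocytes and at 193, 146 and 167 FPKM in Cdk1 Liv-/- hepatocytes, and at 235, 217 and 259 FPKM in Cdk1 Liv-/- whole liver. Gsta1 was close to 0 in WT, at 0.04, 0.19 and 0 FPKM in hepatocytes, against 4.68, 3.11 and 7.12 FPKM in Cdk1 Liv-/- hepatocytes. Cyp2a5 was uneven in hepatocytes, at 26.8, 21.7 and 13.1 FPKM in WT and at 57.8, 13.7 and 46.3 FPKM in Cdk1 Liv-/-, where it did not pass.

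Leaving out the libraries that stood apart changed some of the list counts. Without WT hepatocyte replicate 3, 13 of the other NRF2 target genes, 8 of the glutathione genes, 11 of the acute phase genes and 5 of the immediate early and heat shock genes rose in hepatocytes, and of the zinc and copper genes 2 rose and 2 fell. In that setting 8.61% of all genes rose, in place of 12.1%, and 4.39% fell, in place of 6.61%. Of the haem and iron genes 3 rose and 2 fell, and the counts of the regulators (1 and 0) and of the glucocorticoid-responsive genes (2 and 0) were as with all libraries. Without Cdk1 Liv-/- whole liver replicate 2, 28 of the other NRF2 target genes, 12 of the glutathione genes, 12 of the acute phase genes, 12 of the immediate early and heat shock genes and 9 of the zinc and copper genes rose in whole liver. Of these lists 1 NRF2 target gene, 4 glutathione genes and 1 acute phase gene fell. In that setting 33.0% of all genes rose and 6.87% fell. The regulators then had 4 higher and 0 lower, the thioredoxin list 4 and 4, the haem and iron genes 6 and 1, and the glucocorticoid-responsive genes 1 and 1, at a median of -0.067.

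**Figure D5:**
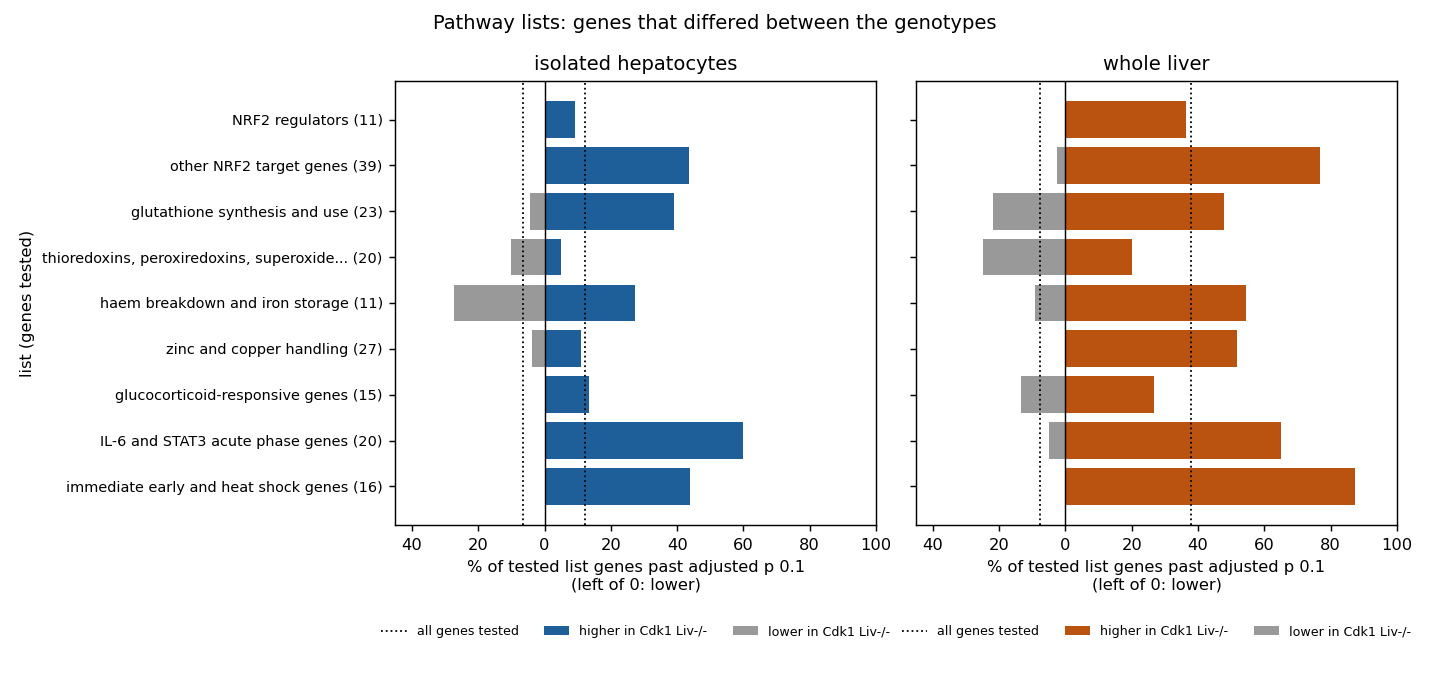
Share of the tested genes of 9 lists that rose (right of 0) or fell (left of 0) in Cdk1 Liv-/- at an adjusted p of at most 0.1, in isolated hepatocytes and whole liver, with dotted lines at the shares of all genes tested (12.1% and 6.61%, 38.0% and 7.53%). Of the other NRF2 target genes 17 of 39 rose in hepatocytes and 30 of 39 in whole liver, 19 of 39 there with size factors.

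Cdk1 Liv-/- whole liver replicate 2 stood apart in several ways that moved with the members. It had the highest Hmox1, Mt1 and Mt2 and the lowest Nqo1 and Gclm of its group. The other calls in whole liver without it were 1.31 for Srxn1 (adjusted p 0.00176), 1.24 for Nfe2l2 (0.00133) and 0.62 for Txnrd1 (0.0140). Its monocyte and neutrophil markers summed to 528 FPKM over 11 genes, against 240.3 and 411 FPKM in replicates 1 and 3 and 138, 114 and 149 FPKM in WT whole liver. In hepatocytes these markers summed to 62.0, 42.5 and 134 FPKM in WT and to 58.0, 43.0 and 56.5 FPKM in Cdk1 Liv-/-. Lyz2 was the most abundant of them, at 160.3 FPKM in that library. Their part in the levels of the members was not tested.

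The make-up of the libraries by marker lists differed between genotypes and compartments. In hepatocytes all 10 markers of sinusoidal endothelial cells were lower in Cdk1 Liv-/- (median -1.61), as were 3 of 12 of stellate cells and fibroblasts, 5 of 11 of B, T and NK cells and 2 of 10 of erythroid cells, with 0 higher in each by limma and 0 at an unadjusted p under 0.05. Stellate cell markers were led by Col3a1, endothelial markers by Fcgr2b, cholangiocyte markers by Spp1 and lymphoid markers by Cd79b. Of 13 hepatocyte markers 1 was higher and 2 were lower, of 11 monocyte and neutrophil markers 1 was higher, and of 10 cholangiocyte markers 7 were higher, where 12.1% of all genes were higher and 6.61% lower. In whole liver 9 of 11 monocyte and neutrophil markers, 7 of 12 stellate cell and fibroblast markers, 7 of 10 cholangiocyte markers and 2 of 10 endothelial markers were higher, where 38.0% of all genes were, and 1 stellate cell marker was lower. There 5 of 13 hepatocyte markers, 3 of 10 erythroid markers and 2 of 11 B, T and NK cell markers were lower, where 7.53% of all genes were. Without Cdk1 Liv-/- replicate 3, 5 of the 11 monocyte and neutrophil markers and 5 of the 10 cholangiocyte markers were higher and 0 of the endothelial markers (1 at an unadjusted p under 0.05). In that setting 5 hepatocyte markers, 2 erythroid markers and 0 of the B, T and NK cell markers were lower, the last with 0 lower at an unadjusted p under 0.05 as well. With size factors 0 of the endothelial markers were higher by limma (0 at an unadjusted p under 0.05), beside 8 monocyte and neutrophil markers and 5 cholangiocyte markers. Erythroid markers, led by Hbb-bs, summed to 148, 109 and 584 FPKM in WT hepatocytes and 72.6, 101 and 24.8 FPKM in Cdk1 Liv-/- hepatocytes. In whole liver they summed to 1106, 1232 and 2173 FPKM in WT and 1166, 1770 and 1457 FPKM in Cdk1 Liv-/-. Counts also moved with the libraries that stood apart, as did the shares of all genes given with the counts of the members. Without WT hepatocyte replicate 3, 9 of the 10 endothelial markers, 0 of the 12 stellate cell markers (with 4 lower at an unadjusted p under 0.05 by limma), 4 of 11 lymphoid and 1 of 10 erythroid markers were lower in Cdk1 Liv-/- hepatocytes. Without Cdk1 Liv-/- whole liver replicate 2, 5 of the 11 monocyte and neutrophil markers, 9 of 12 stellate cell markers and 8 of 10 cholangiocyte markers were higher in whole liver. The only marker gene listed at 0 in a library was Cftr, of the cholangiocyte list, in WT hepatocyte replicate 2.

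An interaction term over the 12 libraries asked whether the effect of genotype was the same in both compartments. None of the 9 members passed by limma, where 2.35% of all genes were higher (409) and 7.49% were lower (1303), and Hmox1 was the 1 member at an unadjusted p under 0.05. These counts over all genes rested on single libraries, at 35 and 43 without WT whole liver replicate 1, 113 and 280 without WT whole liver replicate 2, 171 and 330 without its replicate 3, and 149 and 266 without Cdk1 Liv-/- whole liver replicate 2. They were 219 and 523 when its replicate 3 was left out and 225 and 693 when WT hepatocyte replicate 3 was. The number lower was 633 and 2232 when WT hepatocyte replicate 1 or 2 was left out, and 801 and 572 for Cdk1 Liv-/- hepatocyte replicate 1 or 3. For Nfe2l2 the value was -0.16 (95% interval -0.40 to 0.088, adjusted p 0.429), for Srxn1 -0.10 (95% interval -0.36 to 0.15, adjusted p 0.634), for Txnrd1 0.17 (95% interval -0.11 to 0.46, adjusted p 0.463) and for Nqo1 0.15 (95% interval -0.53 to 0.84, adjusted p 0.814). The value of Nqo1 ran from -0.15, without Cdk1 Liv-/- whole liver replicate 2, to 0.39, without its replicate 3. For Gclc it was -0.47 (95% interval -0.96 to 0.023, adjusted p 0.231) and for Gclm -0.26 (95% interval -0.65 to 0.14, adjusted p 0.421), with ranges over the alternatives of -0.61 to -0.32 and -0.39 to -0.11. The median of all genes was -0.11 and moved by 0.12 with size factors, which also changed the share of calls that were higher from 23.9% to 52.7%. Relative to that median Srxn1 was at 0.0015, Nfe2l2 at -0.051, Hmox1 at -1.27 and Gclc at -0.36.

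The comparisons of hepatocytes with whole liver share their libraries with the genotype comparisons. In WT, 0 of the 9 members were higher and 0 were lower in hepatocytes by limma, where 0.104% and 1.42% of all genes were, and 0 had an unadjusted p under 0.05. Nfe2l2 came nearest, at -0.14 (95% interval -0.29 to 0.0027, adjusted p 0.269). For Hmox1 the value was -0.42 (95% interval -1.63 to 0.80, adjusted p 0.654), and without WT hepatocyte replicate 3 it was -0.98 and passed the threshold (adjusted p 0.0760, over all alternatives 0.0760 to 1).

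In Cdk1 Liv-/-, 3 members were lower in hepatocytes than in whole liver, where 35.9% of all genes were lower, and 0 were higher, where 8.86% were, with 0 higher at an unadjusted p under 0.05. Hmox1 was lower by a log2 value of -1.80 (SE 0.25, 95% interval -2.40 to -1.19, adjusted p 0.00371), with every hepatocyte library below every whole liver library. Kupffer cell and macrophage markers (11 of 12), monocyte and neutrophil markers (11 of 11), endothelial markers (10 of 10) and stellate cell and fibroblast markers (12 of 12) were also lower there, and their part in Hmox1 was not tested. Nfe2l2 (-0.30, adjusted p 0.0495) and Srxn1 (-0.23, adjusted p 0.0554) were lower as well. The median of all genes was -0.19 in this comparison and moved by 0.21 with size factors, which changed the share of calls that were higher from 19.8% to 48.6%. Relative to that median Hmox1 was at -1.60, Nfe2l2 at -0.11 and Srxn1 at -0.036. With size factors Nfe2l2 was at -0.029 (adjusted p 0.809) and Srxn1 at 0.041 (adjusted p 0.713), and Txnrd1 at 0.35 was higher (adjusted p 0.0389).

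Of the calls between the compartments in Cdk1 Liv-/-, that of Hmox1 held without each library in turn. That of Nfe2l2 was lost without hepatocyte replicate 1 (adjusted p 0.106) or 3 (0.109) and without whole liver replicate 1 (0.113) or 2 (0.129), and with FPKM rescaled to the same sum (0.105). That of Srxn1 was lost without hepatocyte replicate 2 (0.103), without whole liver replicate 2 (0.125) or 3 (0.163), and with the replicate number as a block (0.134). Gclm, at -0.23 (95% interval -0.53 to 0.072, adjusted p 0.2001), passed without whole liver replicate 2, at -0.35 (adjusted p 0.0327). The adjusted p lay between 0.0107 and 0.809 for Nfe2l2, between 0.0293 and 0.713 for Srxn1 and between 0.0327 and 0.821 for Gclm over the alternatives.

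By mean level, the order of the groups was the same for Nfe2l2 and Srxn1, with Cdk1 Liv-/- whole liver highest, then Cdk1 Liv-/- hepatocytes, WT whole liver and WT hepatocytes. The step between the genotypes was larger than the spread, and the WT groups did not differ beyond it by the test. The Cdk1 Liv-/- groups differed by the calls given above, which were lost with size factors (adjusted p 0.809 for Nfe2l2 and 0.713 for Srxn1 by limma). For Txnrd1 the order was Cdk1 Liv-/- hepatocytes, Cdk1 Liv-/- whole liver, WT whole liver and WT hepatocytes, and for Nqo1 Cdk1 Liv-/- hepatocytes, Cdk1 Liv-/- whole liver, WT hepatocytes and WT whole liver. In both, neighbours of the same genotype overlapped and did not pass the test. For Hmox1 Cdk1 Liv-/- whole liver, at 59.6 FPKM, was followed by WT whole liver at 29.2, WT hepatocytes at 25.5 and Cdk1 Liv-/- hepatocytes at 16.3, and neighbours below the first overlapped or, for the WT groups, did not pass. Gclm was highest in Cdk1 Liv-/- whole liver (126.8 ± 18.6 FPKM) and lowest in Cdk1 Liv-/- hepatocytes (108 ± 4.70 FPKM), and Gclc was highest in WT hepatocytes (89.3 ± 18.1 FPKM) and lowest in Cdk1 Liv-/- hepatocytes (67.4 ± 7.22 FPKM), with overlap between neighbours in each. For Mt1 and Mt2 Cdk1 Liv-/- hepatocytes came first, at 438 ± 314 and 386 ± 315 FPKM, then Cdk1 Liv-/- whole liver at 222 ± 164 and 160.3 ± 131 FPKM, WT whole liver at 164 ± 112 and 98.5 ± 83.2 FPKM and WT hepatocytes at 148 ± 125 and 75.2 ± 83.2 FPKM, and all neighbours overlapped.

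Among the members, levels per length spanned from Gpx2 at under 0.2 FPKM to Mt1, the most abundant. In WT hepatocytes the order by mean was Mt1 (148 FPKM), Gclm (110.7), Gclc (89.3), Mt2 (75.2), Hmox1 (25.5), Nfe2l2 (24.98), Txnrd1 (17.7), Srxn1 (8.24) and Nqo1 (4.08). The places of Mt1 and Hmox1 in this order rest on replicate 3. The mean of Mt2 also rests on it, with 39.98 and 15.4 FPKM in replicates 1 and 2. In replicates 1 and 2 Mt1 (98.55 and 55.1 FPKM) was below Gclm (115.8 and 119.55 FPKM) and Gclc (107.9 and 88.3 FPKM), and Hmox1 (17.4 and 11.9 FPKM) was below Nfe2l2 and Txnrd1.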

How the data were processed

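Messenger RNA of isolated hepatocytes and whole liver of P14 mice was measured in 12 libraries (single-end 75 bp, TruSeq stranded with polyA selection). FPKM values were used as deposited by the authors, whose processing notes name FastQC, alignment to mm10 with STAR (its version is not given in the sources used here) and RSEM 1.2.31, without further normalization. Members and lists were chosen with earlier results of these data known.

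Comparisons used limma 3.58.1 (R 4.3.3). Values entered it as log2(FPKM + 0.5), with a mean-dependent variance prior, 2-sided tests and adjustment by Benjamini and Hochberg over the 17386 genes with a mean of at least 0.1 FPKM. The threshold was an adjusted p of 0.1, by direction. The pseudocount makes the fold changes of weakly expressed genes too small. The comparisons were genotype within each compartment, compartment within each genotype, and their interaction. Both limma and a two-sample test with q-values were tested on simulated data.

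Alternatives set before the deposited values were read, though with those earlier results known, were pseudocounts of 0.1 and 1, no filter, a mean of at least 1 FPKM, rescaling to the same sum, median-ratio size factors, the replicate number as a block, 1 fit of all 12 libraries, the two-sample test, a required size of 1 for the log2 fold change, and leaving out each library. List counts with size factors, without whole liver Cdk1 Liv-/- replicate 2 or 3 and without WT hepatocyte replicate 3 were chosen after seeing the data.

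There were 9 pathway lists and 8 cell type lists. Genes named are the 10 members, Cdk1, Xist and 4 Y-linked genes, the 2 largest and 2 smallest log2 fold changes past the threshold of each pathway list and compartment, the most abundant marker and the markers at 0 of each cell type list, and the 5 genes most like Nqo1, Hmox1 and Mt1. Others are marked as chosen after their values were seen.

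Depth was estimated from the steps of low FPKM values, searched from 25 to 60 reads per FPKM and kb because multiples also fit, and the floor of 3 reads covers counting error only. GENCODE M21 gave positions for 46488 of the 47069 genes, and promoter windows came from RefSeq on GRCm38.p6.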

Additional observations from a re-analysis of the deposited data

How the results depend on the processing

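In isolated hepatocytes 4 members were higher and 0 lower in Cdk1 Liv-/- by limma, and with 1 library left out 4 to 5 were higher and 0 to 1 lower. The count lower was 1 without WT hepatocyte replicate 3 (Gclc, -0.54) and also 1 in 1 fit of all 12 libraries (Gclc, adjusted p 0.0983, range 0.0876 to 0.357). In whole liver 5 were higher, and 3 to 6 with 1 library left out, 3 without WT replicate 1 or 2 and 6 without Cdk1 Liv-/- replicate 2. Requiring a size of 1 for the log2 fold change as well left 2 higher in hepatocytes and 2 in whole liver, and 1 lower between compartments in Cdk1 Liv-/-. The interaction had 0 lower, and 0 to 1 with 1 library left out, 1 without WT hepatocyte replicate 2 (Hmox1, -1.79). The compartments in WT had 0 lower, and 0 to 1, 1 without WT hepatocyte replicate 3 (Hmox1, -0.98). With size factors 1 member was higher and 1 lower between compartments in Cdk1 Liv-/-, and Srxn1 changed sign to 0.041. With the replicate block 6 were higher in hepatocytes, with Mt1 at 1.66 (adjusted p 0.0205, range 0.0205 to 0.414) and Mt2 at 2.66 (adjusted p 0.0251, range 0.0251 to 0.319), and 4 in whole liver, where Nqo1 missed the threshold (adjusted p 0.104), as Srxn1 did between compartments in Cdk1 Liv-/- (adjusted p 0.134, range 0.0293 to 0.713). Correlations between the deviations of same-numbered libraries from their group means ran from -0.317 to 0.239, and the labels do not state pairs. The calls of Nfe2l2, Srxn1 and Txnrd1 in both compartments and of Nqo1 in hepatocytes passed in each of the 15 alternatives run for them.

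Among all genes, the number of calls depended on the setting. In whole liver 6610 were higher and 1310 lower, against 3107 and 2844 with size factors. In hepatocytes 2108 were higher and 1149 lower, against 1048 and 408 with the replicate block, 1157 and 402 without WT replicate 1 and 1274 and 1224 without WT replicate 2. The number lower was 763 without WT replicate 3 and 664, 647 and 497 without Cdk1 Liv-/- replicates 1, 2 and 3. With 1 library left out, between 51.0% and 75.8% of the hepatocyte calls were higher. Between compartments in WT 18 were higher and 247 lower, against 0 and 0 with that block and 413 and 2656 without WT hepatocyte replicate 3. Between compartments in Cdk1 Liv-/- 1540 were higher and 6234 lower, against 3502 and 3710 with size factors. The number higher there was 1026, 925 and 860 without replicates 1, 2 and 3 of Cdk1 Liv-/- whole liver. The cause of these shifts was not tested.

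With 3 libraries a group, intervals are wide where libraries differ, most of all for Mt1 and Mt2. The values are mRNA levels of bulk samples and say nothing of protein, of NRF2 activity or of metal content. The study states biological replicates in general, the labels do not name the animal of each library, and 1 library disagrees with the stated sex. Strand use in counting is not given, which limits what is known of Gpx2.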

Other observations

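In WT of both compartments Mt1 and Mt2 were highest in replicate 3 and lowest in replicate 2, for Mt1 at 289.9 and 55.1 FPKM in hepatocytes and at 291 and 78.8 FPKM in whole liver. Cdk1 Liv-/- hepatocytes had the same order, with Mt1 at 793 and 197 FPKM, and Cdk1 Liv-/- whole liver did not, with Mt1 at 112 FPKM in replicate 3 and 410.3 FPKM in replicate 2. Over all genes tested, the deviations of same-numbered WT hepatocyte and whole liver libraries from their group means correlated at 0.0456, 0.074 and 0.239. The labels do not say whether these libraries share an animal or a day of collection.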
